A study of Mus musculus with 2 samples.

Results

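The genes described here encode the proteasome: every listed gene whose symbol is Psm, a letter from a to g, a number and at most 1 further letter. The rule found 49 of the 32285 genes in the deposited tables, and it used names alone, with no measured value. Transcripts were counted in single E14 cells, a mouse embryonic stem cell line of 129/Ola background. These were grown on gelatin in medium with serum and leukaemia inhibitory factor, and transfected by Lipofectamine 2000 with a control siRNA (the control library) or with siRNA against Son (the sonKD library). Son encodes a nuclear speckle protein that takes part in splicing. Both cultures were harvested 24 hours after transfection, frozen, thawed and sorted for cells that exclude 7-AAD, and 1 library was made of each. Each group thus holds 1 sample, no difference below has a replicate check or a test, and a difference between the 2 libraries cannot be told apart from an effect of the knockdown. All intervals are at 95% and cover counting error only.

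Cells were barcodes with at least 2500 UMIs (unique molecular identifiers, each marking 1 captured molecule) and 1000 genes, of which no more than 10% of UMIs were mitochondrial. These were 4978 control cells with 40902904 UMIs and 2731 sonKD cells with 32032551 UMIs, at a median of 7737.5 and 11612 UMIs per cell, and 2 cell barcodes occurred in both libraries. Son itself stood at 169 CPM (UMIs of the gene per 1000000 UMIs of the library; 165 to 173) in control and 106 CPM (102 to 109) in sonKD, which is 62.7% of control. All 9 pluripotency markers tested, Pou5f1, Sox2 and Nanog among them, were above 10 CPM in both libraries. Of 7 fibroblast markers 3 were at 0 in control and 4 in sonKD, and only Fbln1 reached 10 CPM. Of 6 immune markers Laptm5 alone reached 10 CPM, and the 6 primitive endoderm markers summed to 6.48 CPM in control against 5.28 CPM in sonKD.

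The proteasome degrades proteins that carry a chain of ubiquitin. Its core particle is a barrel of stacked rings, the outer ones built of alpha subunits (Psma genes) and the inner ones of beta subunits (Psmb genes), of which Psmb5, Psmb6 and Psmb7 carry the constitutive catalytic sites. A regulatory particle caps the barrel: its base holds a ring of ATPases (Psmc genes) that unfold the substrate, and its lid holds the deubiquitinase Psmd14. Cells exposed to interferon can replace the catalytic subunits by Psmb8, Psmb9 and Psmb10, Psme genes encode alternative caps, and Psmg genes and some Psmd genes encode chaperones that help to assemble the complex without being part of it. Embryonic stem cells are known for high proteasome activity.

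Proteasome genes made up about the same small part of the transcriptome in both libraries. Together the 49 genes gave 438868 UMIs in control, or 1.07% of all UMIs, and 327137 in sonKD, or 1.02%. On the CPM scale the sum was 10729.5 (10698 to 10761) in control and 10213 (10178 to 10248) in sonKD, a log2 ratio of sonKD over control of -0.071 (-0.078 to -0.065) that was 0.019 when the libraries were scaled by TMM factors. TMM raised every ratio by 0.090, and leaving mitochondrial and ribosomal protein genes out of the total raised them by 0.071, so signs near 0 rest on the scaling. Across the 8063 genes whose mean reached 10 CPM, members included, the median log2 ratio was -0.12, with a 5th percentile of -0.40 and a 95th of 0.25. Each difference is best read against that background.

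Of the 49 genes, 44 passed the minimum of 10 CPM, which was set on the mean of both libraries. Their median log2 ratio was -0.079 and their range ran from -0.33 to 0.30. A ratio above 0 was found for 14 of the 44, or 31.8%, against 25.1% of all genes tested, and a ratio below 0 for 30, against 74.9%. With TMM factors 27 of the 44 were above 0, beside 43.4% of all genes. Without mitochondrial and ribosomal protein genes 21 were, beside 39.1%. Psmb10 and Psmg3 were at least 1.2-fold higher in sonKD, 2 of 44 or 4.55%, beside 4.65% of all genes. Psma1, Psmb4 and Psme3 were at least 1.2-fold lower, 3 of 44 or 6.82%, beside 17.6% of all genes. At a fold of 1.5 none of the 44 was past it in either direction, while 0.992% of all genes were past it upward and 1.23% downward.

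**Figure D1:**
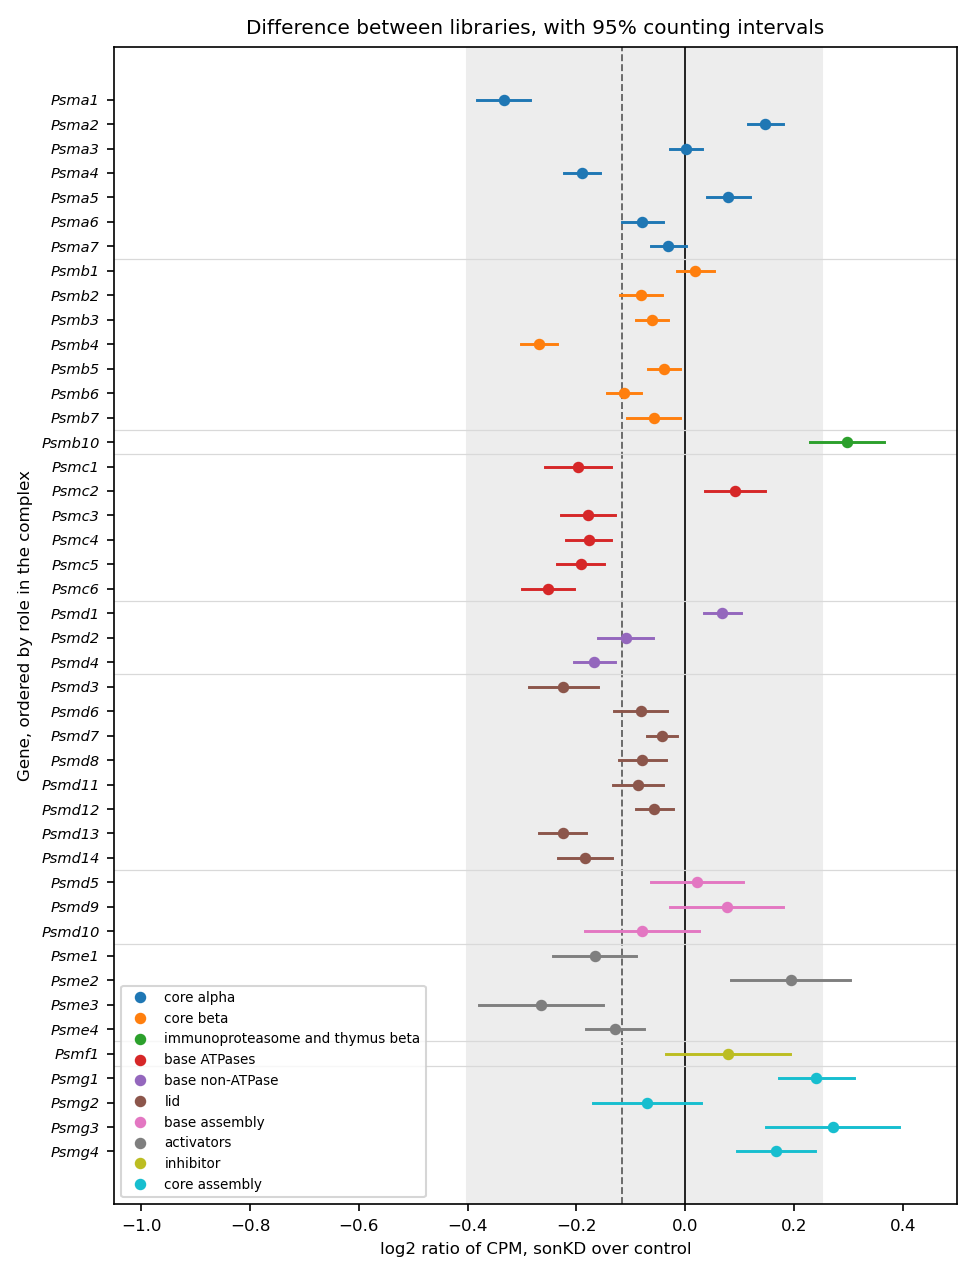
Log2 ratio of CPM, sonKD over control (x axis), for the 44 proteasome genes whose mean reached 10 CPM, ordered and coloured by role, with 95% counting intervals as bars, the median of all 8063 genes as a dashed line and their 5th to 95th percentile in grey. All members but Psmb10 and Psmg3 lie inside the grey band, and TMM scaling would move every point 0.090 to the right, which takes 13 members from below 0 to above it.

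The share of each role within the proteasome's own UMIs does not depend on how the libraries are scaled. The constitutive core took 51.9% of member UMIs in control (51.8 to 52.1) and 52.2% in sonKD (52.0 to 52.4). The regulatory particle took 40.2% (40.1 to 40.4) and 39.3% (39.1 to 39.4), so that core UMIs outnumbered regulatory ones 1.29 to 1 in control (1.28 to 1.30) and 1.33 to 1 in sonKD (1.32 to 1.34). Within the regulatory particle the ATPases accounted for most of that difference, at 11.3% in control and 10.6% in sonKD. The core assembly chaperones went the other way, from 2.27% (2.23 to 2.31) to 2.67% (2.62 to 2.73). Over all cells these shifts exceeded counting error, but their size between replicate cultures is unknown. The shift between core and regulatory particle did not keep its direction at every depth. At 2500 to 5000 UMIs per cell the log2 ratio was -0.21 for the core and -0.040 for the regulatory particle. From 20000 UMIs on these were -0.23 and -0.16. They were -0.10 and -0.22 at 5000 to 10000 UMIs, and -0.0087 and -0.091 at 10000 to 20000 UMIs. The part of depth in this shift was not tested.

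Subunits that sit in the complex in equal number did not have equal numbers of transcripts. Each UMI marks 1 captured molecule, so CPM values were not divided by transcript length. Differences between genes also hold differences in capture of their 3′ ends, and of introns if intronic reads were counted. Over 31 subunits of the 26S complex (core and regulatory particle without the germ-cell subunit Psma8), levels ran from Psmd3 at 120 CPM to Psmd7 at 592 CPM in control, 4.92-fold apart. In sonKD the same genes stood at the ends, at 103 and 575 CPM, 5.58-fold apart. The coefficient of variation across these subunits was 42.4% in control and 45.1% in sonKD. Core subunits were more even, at 28.5% and 29.7%, than those of the regulatory particle, at 46.5% and 50.5%. The order of genes was kept between libraries, with Pearson's r of 0.993 and Spearman's rho of 0.991 over the log2 CPM of 44 genes, which are not replicates. Over all 8063 genes these were 0.991 and 0.987.

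**Figure D2:**
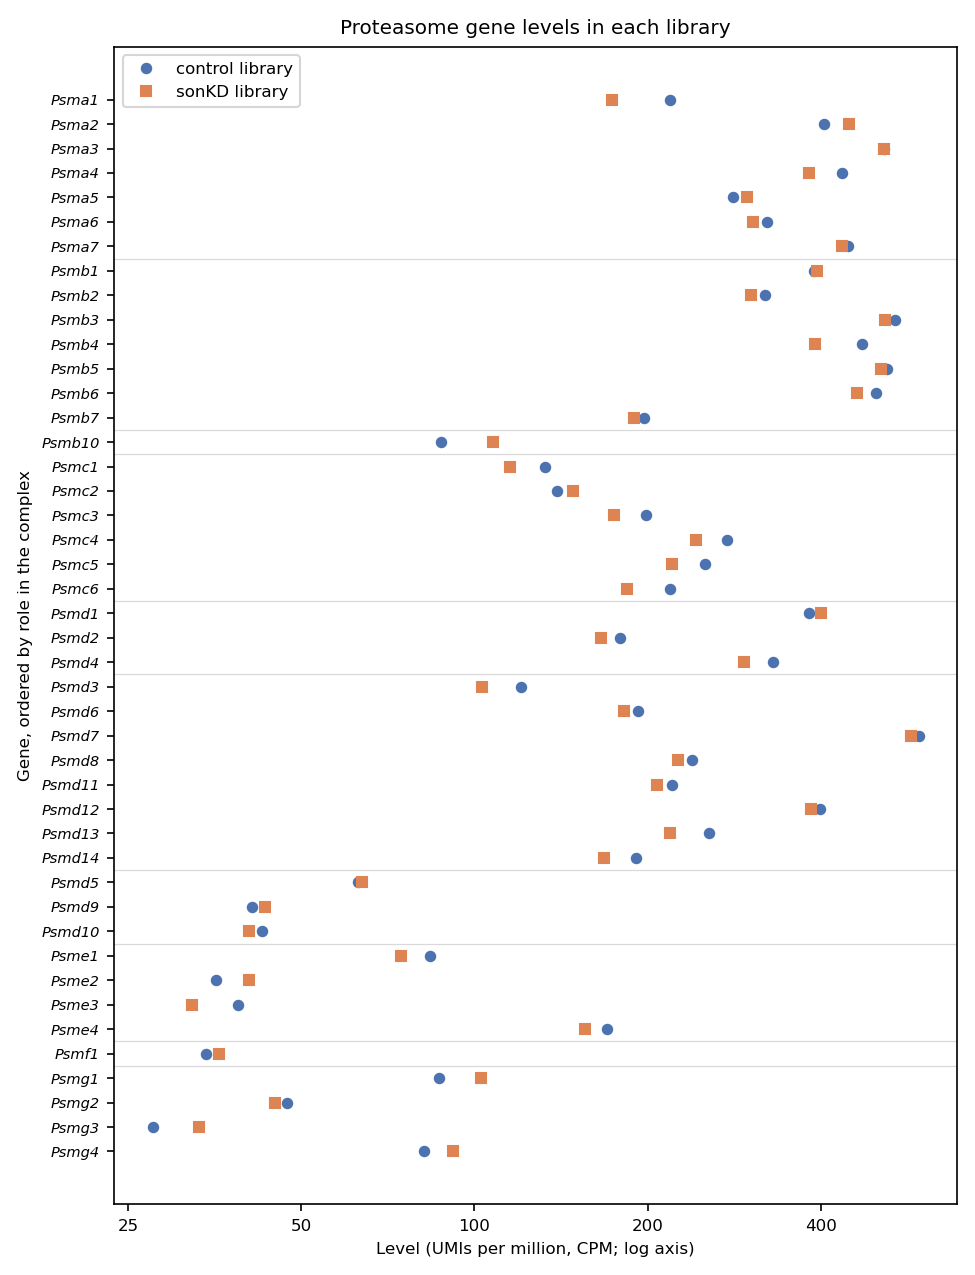
Level of each of the 44 genes whose mean reached 10 CPM in the control library (circles) and the sonKD library (squares), in CPM on a log axis, ordered by role. Core subunits lie between 173 and 539 CPM, subunits of the regulatory particle between 103 and 592 CPM, and the assembly chaperones and the inhibitor Psmf1 between 27.6 and 103 CPM.

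Among the alpha subunits, which form the outer rings and the gate, Psma1 had the lowest ratio of all members. It lies on chromosome 7 of GRCm38 from 114264606 to 114276118. Its level was 218 CPM in control (214 to 223) against 173 CPM in sonKD (169 to 178), a log2 ratio of -0.33 (-0.38 to -0.29), and the ratio was below 0 under all alternatives tried, between -0.35 and -0.24. Psma4 followed at 435 and 381 CPM, a ratio of -0.19 (-0.22 to -0.16). At the other end Psma2 stood at 405 CPM in control against 448 CPM in sonKD, a ratio of 0.15 (0.12 to 0.18). Psma5 came next at 281 and 297 CPM, a ratio of 0.080 (0.040 to 0.12). Its count is uncertain, because 53.8% of its 3′ end sequence also occurs in annotated pseudogenes. Psma3 was level at 514 and 515 CPM, and Psma6 was at 322 and 305 CPM, a ratio of -0.079 that was 0.011 with TMM factors. Genes of the same ring thus went both ways, and the intervals of Psma1 and Psma2 lay far apart. The summed alpha subunits had a ratio of -0.037, which was 0.053 with TMM factors.

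Psma8, the alpha subunit that replaces Psma7 in germ cells, was at 7.82 CPM in control against 6.62 CPM in sonKD, below the minimum. Its ratio of -0.24 had an interval of -0.50 to 0.014 that included 0. Psma7 itself stood at 446 and 436 CPM.

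The 3 constitutive catalytic subunits were close to level between the libraries, and the sign of 2 of them rested on the scaling. Psmb5, the chymotrypsin-like site, was at 522 CPM in control against 508 CPM in sonKD, a log2 ratio of -0.039 (-0.068 to -0.0094) that was 0.051 with TMM factors. Psmb6, the caspase-like site, was at 500 and 462 CPM, a ratio of -0.11 (-0.14 to -0.082). Psmb7, the trypsin-like site, was at 197 and 189 CPM, a ratio of -0.058 (-0.11 to -0.010) that was 0.032 with TMM factors. Psmb7 was thus the least abundant of the catalytic transcripts in both libraries. For Psmb5, 65.0% of the 3′ end sequence is shared with a pseudogene, and for Psmb3, at 539 and 517 CPM the most abundant core transcript, 64.1% is.

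Of the other beta subunits, Psmb4 differed most. Control cells held it at 471 CPM (465 to 478) and sonKD cells at 391 CPM (384 to 398), a ratio of -0.27 (-0.30 to -0.24). Psmb1 was at 389 and 395 CPM, a ratio of 0.019 (-0.015 to 0.052) whose interval included 0. Psmb3 had a ratio of -0.061, 0.029 with TMM factors, and Psmb2, at 321 and 303 CPM, one of -0.081, 0.0090 with TMM factors. The summed beta subunits had a ratio of -0.088, which was 0.0020 with TMM factors.

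The ATPases of the base had ratios below 0 in 5 of 6 genes, or 83.3%, beside 74.9% of all genes. Psmc6 was at 219 CPM in control (215 to 224) against 184 CPM in sonKD (179 to 189), a log2 ratio of -0.25 (-0.30 to -0.20). Psmc1 was at 132 and 115 CPM, a ratio of -0.20 (-0.26 to -0.14). Psmc4 was at 275 and 243 CPM, a ratio of -0.18 (-0.22 to -0.14). Psmc3, at 198 and 175 CPM, and Psmc5, at 252 and 221 CPM, had ratios of -0.18 and -0.19. Psmc2 alone was higher in sonKD, at 148 CPM against 139 CPM, a ratio of 0.092 (0.036 to 0.15). The 6 genes summed to 1216 CPM in control against 1086 CPM in sonKD, a ratio of -0.16 (-0.18 to -0.14) that stayed below 0 under both other scalings. Their median was -0.19, beside -0.12 over all genes.

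The base also holds the large scaffold Psmd1, the scaffold Psmd2 and the ubiquitin receptor Psmd4. Psmd4 was at 330 CPM in control against 294 CPM in sonKD, a ratio of -0.17 (-0.21 to -0.13). Psmd2 was at 179 and 166 CPM, a ratio of -0.11 (-0.16 to -0.058). Psmd1 was at 381 and 400 CPM, a ratio of 0.068 (0.034 to 0.10), and 72.9% of its 3′ end sequence is shared with Gm21972, a gene model that overlaps it on the same strand. The sum of these 3 genes had a ratio of -0.051, which was 0.039 with TMM factors.

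All 8 lid genes had a ratio below 0 by CPM, beside 74.9% of all genes, from -0.23 for Psmd13 to -0.043 for Psmd7, and 5 of the 8 were above 0 with TMM factors, beside 43.4% of all genes. Psmd13 was at 256 CPM in control (251 to 261) against 219 CPM in sonKD (214 to 224). Psmd3, the least abundant lid gene, was at 120 and 103 CPM, a ratio of -0.22 (-0.29 to -0.16). Psmd14, which removes ubiquitin from substrates, was at 191 and 168 CPM, a ratio of -0.18 (-0.23 to -0.13). Psmd7, its inactive partner in the lid, lies on chromosome 8 of GRCm38 from 107580381 to 107588464 and was the most abundant member, at 592 and 575 CPM. Its ratio of -0.043 (-0.070 to -0.015) was 0.047 with TMM factors. Psmd12 was at 399 and 384 CPM, a ratio of -0.057 that was 0.033 with TMM factors. Psmd6, Psmd8 and Psmd11 were at 192, 239 and 221 CPM in control and at 182, 226 and 208 CPM in sonKD, with ratios of -0.082, -0.079 and -0.087 that were above 0 with TMM factors.

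Of the 4 chaperones of the core particle, 3 had ratios above 0, beside 25.1% of all genes. Psmg1 and Psmg2 form one chaperone pair for the alpha ring, and Psmg3 and Psmg4 another. Psmg3 (chromosome 5 of GRCm38, 139823592 to 139826885) was at 27.6 CPM in control (25.99 to 29.2) against 33.3 CPM in sonKD (31.3 to 35.3), a log2 ratio of 0.27 (0.15 to 0.39). Psmg1 was at 86.9 CPM (84.1 to 89.8) and 103 CPM (99.2 to 106), a ratio of 0.24 (0.17 to 0.31). Psmg4 was at 81.8 and 91.9 CPM, a ratio of 0.17 (0.096 to 0.24). Psmg2 did not go with them, at 47.2 and 45.0 CPM and a ratio of -0.070 (-0.17 to 0.029), 0.020 with TMM factors. The 3 higher genes lay at the 91.8th to 95.5th percentile of all genes tested. They have short transcripts, and the median length of the 4 genes was 963.5 bases against 3064 bases over all genes, a property that went with higher ratios across the transcriptome. The part of length in their ratios was not tested.

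The chaperones of the base were close to level. Psmd5 was at 62.8 CPM in control against 63.7 CPM in sonKD, a ratio of 0.021 (-0.063 to 0.11). Psmd9 was at 41.1 and 43.3 CPM, a ratio of 0.076 (-0.027 to 0.18), and Psmd10, also known as gankyrin, was at 42.8 and 40.5 CPM, a ratio of -0.079 (-0.18 to 0.025). All 3 intervals included 0.

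Among the genes of alternative caps, 3 of the 4 at 10 CPM had ratios below 0, or 75%, beside 74.9% of all genes. Psme1 and Psme2 encode the partner subunits of the PA28 cap, which interferon can induce. Psme1 was at 83.7 CPM in control (80.9 to 86.6) against 74.6 CPM in sonKD (71.6 to 77.6), a ratio of -0.17 (-0.24 to -0.091). Psme2 was at 35.5 CPM (33.7 to 37.4) and 40.6 CPM (38.4 to 42.9), a ratio of 0.19 (0.085 to 0.30). In cells thinned to equal depth that ratio was 0.060, below its counting interval. The Psme2 count is uncertain, because 68.9% of its 3′ end sequence is shared with Psme2b, an intronless copy on chromosome 11 that stood at 1.34 and 2.09 CPM. Psme3, which forms a nuclear cap of the same family, was at 38.9 and 32.3 CPM, a ratio of -0.27 (-0.38 to -0.15). Psme4, the large cap PA200, was at 170 and 155 CPM, a ratio of -0.13 (-0.18 to -0.076). Psmf1, which encodes the inhibitor PI31, was at 34.1 and 36.0 CPM, a ratio of 0.079 (-0.035 to 0.19) whose interval included 0.

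Of the immunoproteasome genes, only Psmb10 reached 10 CPM. It lies on chromosome 8 of GRCm38 from 105935735 to 105938444. Its level was 87.6 CPM in control (84.8 to 90.5) against 108 CPM in sonKD (104 to 111), a log2 ratio of 0.30 (0.23 to 0.37), the highest of the 44 and at the 96.1th percentile of all genes tested. The ratio was above 0 under all alternatives tried, between 0.21 in cells thinned to equal depth and 0.39 with TMM factors. Near-empty droplets, which hold free RNA, gave Psmb10 at 148 and 180 CPM, above its level in cells. Psmb9 was at 2.62 CPM in control (2.14 to 3.16) against 4.03 CPM in sonKD (3.36 to 4.79), from 107 and 129 UMIs, a ratio of 0.62 (0.24 to 1.01). Droplets held Psmb9 at 2.67 and 5.04 CPM, so that neither gene was higher in cells than in free RNA. This was not particular to them. All 14 core genes at 10 CPM were also higher in droplets than in cells in both libraries, beside 18.9% of all genes in control and 16.3% in sonKD. Psmb8 had 4 UMIs in control and 1 in sonKD, and Psmb11, the thymus subunit, had 5 and 7. The Psmb8 UMIs lay in 4 of 4978 control cells and 1 of 2731 sonKD cells.

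Interferon response genes were measured beside them, and 3 of 8 reached 10 CPM in each library. The 8 genes summed to 52.8 CPM in control against 53.8 CPM in sonKD. Irf1 was at 10.3 and 11.4 CPM, and Tap1, the neighbour of Psmb9, at 1.91 and 1.97 CPM. Ifit1 was at 0 in both libraries, and B2m was highest at 25.3 and 25.9 CPM. Psmb10 was thus above each of these 8 genes in level, and their sum was nearly the same in both libraries.

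Ratios were set against gene structure, because longer transcripts and more exons went with lower ratios over all genes. Over the 44 members Spearman's rho of the ratio was -0.41 with the number of exons and -0.11 with transcript length. Over all 8063 genes it was -0.29 and -0.28. The points of each set share the same 2 libraries, and genes are not replicates. Members at or below their median length of 1490.5 bases had a median ratio of -0.074, against -0.011 for all 1328 genes of such lengths. Longer members had a median of -0.083, against -0.13 for all 6735 longer genes. The short members therefore lay below, and the long ones above, the median of all genes on the same side of that length. Lengths were not matched within either side: the longest member transcript has 6491 bases and the longest of all genes 123179. The medians of the short and long members were nearly the same. Core subunits had a median of 7 exons and regulatory subunits 12.

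Cells were thinned at random to 2500 UMIs each, which left out none, to compare them at equal depth. A control cell then held a median of 26 proteasome UMIs, with quartiles of 22 and 31 and a range from 3 to 58. A sonKD cell held a median of 25, with quartiles of 21 and 30 and a range from 3 to 48. The mean was 26.7 and 25.3, a difference of -5.10% (-5.97 to -4.22) by counting error, on a scale that like CPM takes no TMM factor. The distributions overlapped almost entirely, and neither library showed a separate group of cells with few or many proteasome UMIs.

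**Figure D3:**
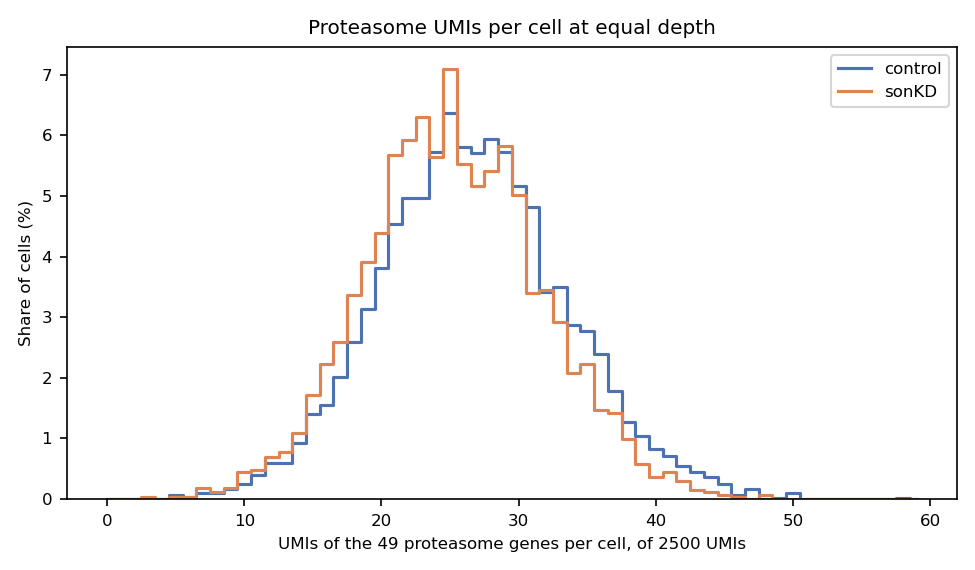
Share of cells (y axis, %) by the number of UMIs of the 49 proteasome genes in each cell after thinning to 2500 UMIs (x axis), for 4978 control and 2731 sonKD cells. Both libraries form 1 broad peak, with medians of 26 and 25 UMIs.

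Cells of a library differed somewhat more than random sampling gives. The variance of the proteasome sum was 1.73 times its mean in control and 1.63 times in sonKD, where sampling alone gives 0.989 and 0.990. Beyond sampling, the spread between cells was 16.7% of the mean in control and 15.9% in sonKD. The core varied by 20.7% and 20.5% and the regulatory particle by 15.5% and 15.3%. Across cells, core and regulatory sums had Pearson's r of 0.22 in control and 0.18 in sonKD at 2500 UMIs, and of 0.31 and 0.26 at 5000 UMIs. These rest on small counts in cells of 1 library and are given as a description. The proteasome sum and the mitochondrial share of a cell had r of -0.35 in control and -0.31 in sonKD.

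That relation with mitochondrial UMIs showed as steps between bands of barcodes. In control the summed level was 12115 CPM at up to 2.5% mitochondrial UMIs, 10833 CPM at 2.5 to 5% and 9286 CPM at 5 to 10%. In sonKD it was 11244, 10422 and 9230 CPM. Without mitochondrial UMIs in the total the steps remained, at 12383, 11233 and 9905 CPM in control and 11497, 10829 and 9842 CPM in sonKD. By CPM, the log2 ratio between libraries was -0.11 (-0.13 to -0.083), -0.056 (-0.063 to -0.048) and -0.0086 (-0.025 to 0.0078) over these bands. The ratio was thus lowest among cells with few mitochondrial UMIs. TMM factors were not computed by band. A shift like their 0.090 over all cells would change which band lies furthest from 0, so where the libraries differ most rests on the scaling. The ratio also differed between bands of depth, in no steady order. It was -0.12 (-0.17 to -0.082) in cells with 2500 to 5000 UMIs and -0.14 (-0.15 to -0.13) in those with 5000 to 10000 UMIs. It was -0.035 (-0.045 to -0.025) at 10000 to 20000 UMIs and -0.18 (-0.21 to -0.15) from 20000 UMIs on. The part of mitochondrial share and depth in the difference between libraries was not tested beyond these bands.

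The balance of core and regulatory transcripts moved more between kinds of barcode than between libraries. Barcodes with 100 to 500 UMIs are mostly droplets without a cell, and their UMIs are free RNA. They held proteasome genes at 13436 CPM in control against 12191 CPM in sonKD, above the level in cells of both libraries. Core UMIs outnumbered regulatory ones 2.04 to 1 there in control (2.02 to 2.06) and 2.19 to 1 in sonKD (2.17 to 2.21). In barcodes at cell depth with 10 to 25% mitochondrial UMIs, which the comparison above leaves out, the balance was 0.975 to 1 (0.943 to 1.01) and 1.04 to 1 (1.02 to 1.07). Cells lay between, from 1.27 to 1.36 over the 3 mitochondrial bands and both libraries.

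**Figure D4:**
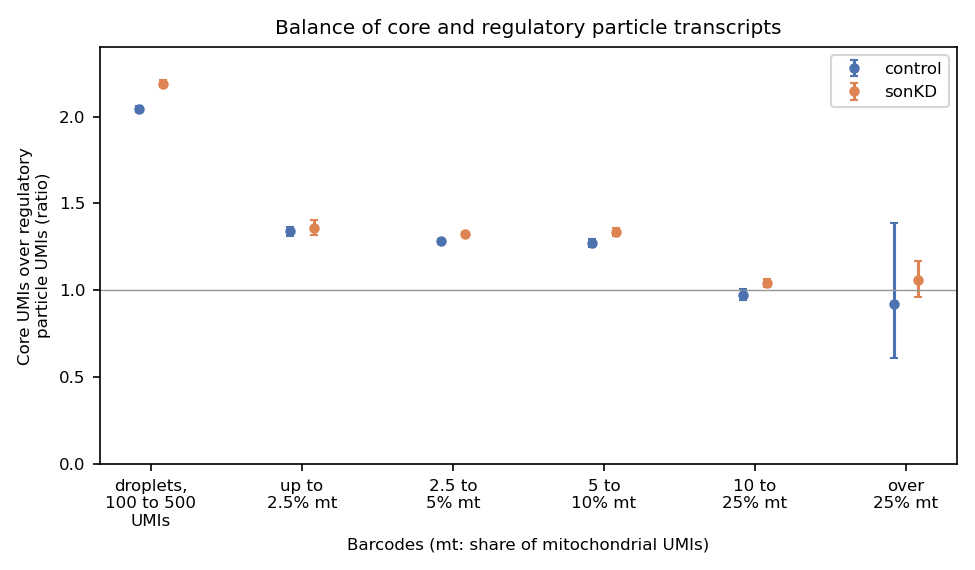
UMIs of constitutive core genes divided by UMIs of regulatory particle genes (y axis) in near-empty droplets and in barcodes at cell depth by their share of mitochondrial UMIs (mt, x axis), for control and sonKD, with 95% counting intervals as bars. The ratio is 2.04 and 2.19 in droplets, 1.27 to 1.36 in cells and 0.975 and 1.04 at 10 to 25% mt.

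The droplet profile was a property of single genes that both libraries shared. All 14 core genes at 10 CPM had a higher CPM in droplets than in cells in both libraries, beside 18.9% of all genes in control and 16.3% in sonKD, with a median of 154% of the cell level in control and 143% in sonKD. Of the 17 regulatory genes 8 were above 100% in control and 5 in sonKD, with medians of 99.2% and 95.6%. Psma7 was highest, at 218% and 208%. Psme4, the member with the longest transcript, was lowest, at 29.9% and 22.6%, followed by Psmd1 at 53.3% and 46.5%. Over the 44 genes the log2 values of the 2 libraries had Pearson's r of 0.984.

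Over all 8063 genes the median level in droplets was 52.8% of that in cells in control and 49.04% in sonKD. Transcript length went with this measure, with Spearman's rho of -0.70 in both libraries over all genes, and of -0.68 and -0.70 over the members. Core transcripts had a median length of 1162.5 bases and regulatory ones 1819 bases. Whether the role of a gene adds to its length was not tested.

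**Figure D5:**
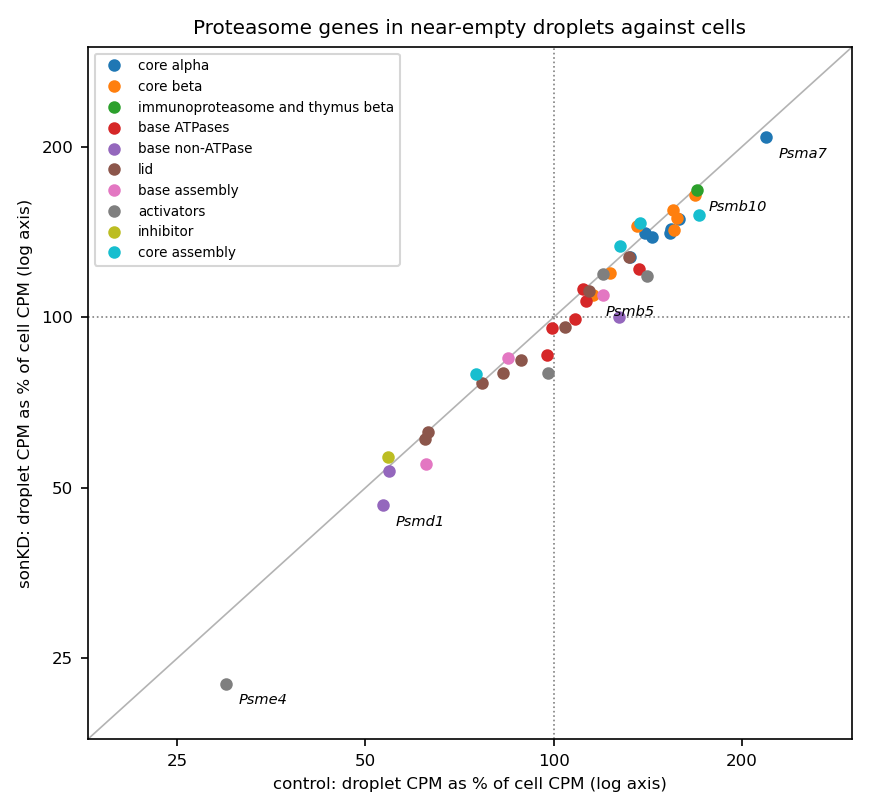
CPM in near-empty droplets (100 to 500 UMIs) as a percentage of CPM in cells, for control (x axis) and sonKD (y axis), both on log axes, with 1 point for each of the 44 genes at 10 CPM, coloured by role. Points follow the diagonal of equal values, all core genes lie above 100% (dotted lines) and Psme4 is lowest at 29.9% and 22.6%.

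The barcodes with 10 to 25% mitochondrial UMIs held less of the core relative to cells than they did of most genes. Among 8050 genes at 10 CPM, mitochondrial ones left out, 31% in control and 27.8% in sonKD were lower there than in cells, 69% and 72.2% were higher, and the medians were 125% and 126% of the cell level. With mitochondrial UMIs left out of the totals, all 14 core genes were lower there than in control cells, at a median of 74.3% of the cell level, and 12 of 14 were in sonKD, at a median of 84.5%. Psmb6 was lowest of the core in both, at 58.9% and 65.1%. Regulatory genes had medians of 97.8% and 107%, with 7 and 13 of 17 above the cell level. Psme4 was at 154% and 142%, and Psmd5 at 124% and 153%. Counts were small in these barcodes, with 33 to 1067 UMIs per gene in control and 68 to 1883 in sonKD.

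Proteasome genes that the naming rule leaves out were measured as a list of 30 genes, of which 29 were found and 28 reached 10 CPM. Of the 28, 7 were above 0, or 25%, and 21 below, with a median of -0.15. Over all genes 25.1% were above 0 and the median was -0.12, so the list was near the background. Sem1, the smallest subunit of the lid, was at 149 CPM in control (145 to 152) against 293 CPM in sonKD (287 to 299), a log2 ratio of 0.98 (0.93 to 1.03). None of its 3′ end sequence is shared with another annotated transcript, and its ratio lay between 0.89 and 1.07 under the 7 alternatives. No member of the lid that the rule covers was above 0 by CPM. Adrm1, a ubiquitin receptor of the base, was at 61.6 and 70.5 CPM, a ratio of 0.19 (0.11 to 0.28), with 70.9% of its 3′ end shared with the gene model Gm9774.

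The assembly factor Pomp was at 416 CPM in control against 384 CPM in sonKD, a ratio of -0.11 (-0.15 to -0.079), unlike Psmg1, Psmg3 and Psmg4. Nfe2l1, the transcription factor that raises proteasome genes when proteasome activity is low, was at 37.9 and 40.0 CPM, a ratio of 0.076 (-0.032 to 0.18), and the related Nfe2l2 at 75.5 and 73.4 CPM, a ratio of -0.040 (-0.12 to 0.038). Both intervals included 0. Akirin2, which brings proteasomes into the nucleus, was at 95.2 and 73.2 CPM, a ratio of -0.38 (-0.45 to -0.30). That ratio was -0.25 in cells thinned to equal depth and -0.29 with TMM factors, both outside its counting interval.

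Nfe2l1 and Nfe2l2 bind antioxidant response elements, whose core TGACNNNGC was searched on both strands of the 250 bases before the RefSeq start of each gene. Of 41 members with a promoter in the RefSeq table (GRCm38.p6), 5 held a match, or 12.2% (4.08 to 26.2), against 11.5% of all 27025 genes, so the share was near the background. The 5 genes were Psmb5, Psmb6, Psmc6, Psmd12 and Psmd9, with ratios from -0.25 to 0.076 and a median of -0.057, while the 32 others at 10 CPM had a median of -0.079. The CCAAT box was found for 34.1% of members and 37.5% of all genes. A match is only a run of letters and no evidence of binding. A stretch of 60 bases with the match is shown for each of the 4 genes whose match lies outside the GENCODE gene model, because these include the catalytic subunits Psmb5 and Psmb6. Each is written on the strand of the gene with the match in capitals, which for Psmc6 and Psmd12 lies on the other strand and so reads as its reverse complement.
Psmb5 (chr14:54618023-54618082, minus strand): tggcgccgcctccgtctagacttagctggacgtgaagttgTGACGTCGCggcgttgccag
Psmb6 (chr11:70525297-70525356, plus strand): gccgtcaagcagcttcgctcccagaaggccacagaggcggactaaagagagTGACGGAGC
Psmc6 (chr14:45329574-45329633, plus strand): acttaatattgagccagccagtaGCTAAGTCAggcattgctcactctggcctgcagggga
Psmd12 (chr11:107479278-107479337, plus strand): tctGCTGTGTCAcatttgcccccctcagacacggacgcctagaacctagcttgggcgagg
The match began 47 bases before the start in Psmb5 and 9 bases before it in Psmb6, against 227 in Psmc6 and 247 in Psmd12. Their ratios of -0.039, -0.11, -0.25 and -0.057 did not follow that distance.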

How the data were processed

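The authors deposited unnormalized UMI counts for each barcode, made with Cell Ranger 7.1.0 per the file headers, on mm10 per the submitters' processing notes. The treatment of intronic reads is not given in the sources used here. Groups came from the sample titles. UMIs of the kept cells were summed per library and divided by the library total to give CPM. Log2 ratios have no pseudocount, and counts under 3 were set to 3. Intervals are exact Poisson for levels, exact conditional binomial for ratios and exact binomial (Clopper-Pearson) for shares. The ratio and the thinning were run on simulated counts that held counting error alone. That checks the computation, and not whether the intervals cover the spread of real cells. Doublets were kept, since Scrublet (scanpy 1.11.5) called only 0.0603% of control and 0.0366% of sonKD cells. An alternative removed the highest scores at 0.8% per 1000 cells. TMM factors came from edgeR 4.0.16. Other alternatives changed cells, filters, summing and depth. Gene models are GENCODE M21 on GRCm38, which holds all 49 members. Shared 3′ sequence is the share of 50-base words in the last 400 bases of a transcript that occur in another gene.

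The members and lists were chosen with earlier results of these data known. All members may be named, with values in both libraries for the 2 highest and 2 lowest ratios of each role and for catalytic, immunoproteasome, cap, inhibitor, chaperone, receptor and deubiquitinase genes. Of the pathway list, the 2 highest and 2 lowest ratios, Nfe2l1, Nfe2l2, Pomp and Adrm1 were to be named. Some of these genes are not reported here.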

Additional observations from a re-analysis of the deposited data

Results flagged for a closer look

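Barcodes at cell depth with 10 to 25% mitochondrial UMIs, which the comparison of cells leaves out, held proteasome genes in sum at a higher level in sonKD than in control. The sum of all members was 8413 CPM in sonKD (8315 to 8512) and 8146 CPM in control (8020 to 8274). The constitutive core was at 3887 CPM in sonKD and 3660 CPM in control. The regulatory particle did not share this, at 3730 and 3755 CPM, a log2 ratio of -0.0097 (-0.051 to 0.032). Attention was drawn to both because they lie outside the main measurement and above their level in the control library, while in cells the order was the other way round by CPM. There were 957 such barcodes in sonKD and 618 in control, and the difference was not tested.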

How the results depend on the processing

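No paired analysis was possible because there was 1 library per group, which also leaves no test. The alternatives moved the scaling, the cells, the filter, the summing, the depth and the fold.

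Scaling mattered most. TMM factors gave log2 ratios of 0.019 for the sum of all members, 0.026 for the constitutive core, -0.016 for the regulatory particle, 0.053 for the alpha, 0.0020 for the beta and 0.039 for the base non-ATPase subunits, with a member median of 0.011. Leaving mitochondrial and ribosomal protein genes out of the totals gave -0.00040, 0.0072 and -0.035 for the first 3, 0.034 for alpha and 0.020 for the base non-ATPase subunits. The mean of CPM per cell gave -0.078 for the sum of all members.

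With TMM factors Psmb7 stood at 0.032, Psmb2 at 0.0090, Psmd8 at 0.012, Psmd7 at 0.047, Psmd11 at 0.0026, Psmb3 at 0.029, Psmd12 at 0.033, Psma6 at 0.011, Psmd6 at 0.0083 and Psmb5 at 0.051. Without mitochondrial and ribosomal protein genes Psmb7 was at 0.013, Psmd7 at 0.028, Psmb3 at 0.0097, Psmd12 at 0.014 and Psmb5 at 0.032. For the 44 members, 224 of 308 values stayed inside the counting interval, 69 left it, and 15 reversed.

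By CPM 14 members were above and 30 below 0, and with TMM factors 27 and 17. Members at least 1.2-fold higher, 2 by CPM, numbered 4 under both other scalings, beside 7.90% of all genes with TMM factors and 7.14% without mitochondrial and ribosomal protein genes. They numbered 1 from 5000 UMIs (4.80% of all genes), with doublets removed by rate (4.70%), when thinned (6.49%) and at 50 CPM (6.49%), 5 without a filter on level (19.9%) and 0 at a fold of 1.5 (0.992%). Members at least 1.2-fold lower, 3 by CPM, numbered 0 under both other scalings (7.55% and 9.04% of all genes) and at a fold of 1.5 (1.23%), 1 at no more than 5% mitochondrial UMIs (16.9%) and 6 when thinned (20.6%). The looser motif TGANNNNGC was found for 39.0% of members and 38.7% of all genes.

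Members under 10 CPM are limited by depth, and 1 library per group limits every difference.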
